A study of Mus musculus with 12 samples.

Results

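H3K4me3, trimethylation of lysine on the tail of histone H3, was compared between adult and embryonic mouse small-intestinal epithelium over 8 libraries of chromatin immunoprecipitation and sequencing (ChIP-seq), 4 on each side, of the 12 samples in the series. The adult side joined 2 libraries of Lgr5-positive intestinal stem cells (ISC) and 2 of enterocytes. The embryonic side joined 2 libraries each of epithelium of stages E12.5 and E14.5, counted in days of embryonic life. The remaining 4 samples are inputs, sonicated chromatin without the antibody, and enter only as controls of the authors' peak calls. All animals were of a mixed C57BL/6 CD1 background. The adults were males at postnatal day 60 that carried the Lgr5EGFP-Cre-ERT allele, a reporter read from the Lgr5 locus, and ISC were the Lgr5-EGFP-high fraction of their crypt cells. The sex of the embryos is not given in the sources used here, and whether they carried the allele is not stated here. Embryonic epithelium and enterocytes were sorted as EpCAM-positive, CD31-negative and CD45-negative living cells. The stated gate for enterocytes holds no marker particular to enterocytes. Age, the way the tissue was taken apart, the input and, possibly, sex and the reporter allele all differ between the sides. Their parts cannot be told apart.

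H3K4me3 is placed by the SET1 and MLL family of methyltransferase complexes, is removed by KDM5 demethylases, and marks the starts of active and poised genes, where TFIID and other readers bind it. Long H3K4me3 domains are known for genes that define a cell's identity. In the embryo the gut tube is lined by a proliferating epithelium that has not yet formed crypts, whereas in the adult the Lgr5-positive crypt base cells renew the lining and enterocytes of the villus absorb nutrients. The title of the series names changes of chromatin states while adult stem cells are specified and differentiate. The pooled comparison asks which regions separate adult from embryonic epithelium whatever the stage or cell type within a side.

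The peaks of the 8 lists were joined wherever they overlapped or touched, which gave 23602 regions on the 19 autosomes, of 24352 with the sex chromosomes. The value of a region in a library is its covered length, the bp of it that lie under that library's peaks. A region in none of a library's peaks is one not called there and is given as 0 bp. Positions are those of the build mm9. Genes were not placed on mm9 here, so regions carry positions and no gene names. For the same reason the labels could not be checked against 5 genes proposed as markers of the sides, namely Pigr, Ceacam1 and Abcg5 for the adult and Igf2bp1 and Sox11 for the embryo, and no value is given for them.

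As whole libraries the sides overlapped in depth, number of peaks and peak length. The adult libraries held between 12821255 and 25547814 tags and the embryonic ones between 15053166 and 43259380. Autosomal peaks numbered 11272 to 16567 in adult and 10699 to 17068 in embryonic libraries, and the median autosomal peak was 1032 to 1166 bp long in adult and 899 to 1285 bp in embryonic ones. For tags, peaks, covered length, median length and peaks of at least 5000 bp, the exact two-sided permutation p lay between 0.4 and 1.0 (n = 4 a side, adjusted p = 1.0 for all 5). The smallest p this design allows is 0.0286. Within the embryonic side the E12.5 libraries had shorter autosomal coverage (11154568 and 13896899 bp) than those of E14.5 (22415471 and 23533963 bp). Covered length was therefore divided by a factor per library, lowest in E12.5 replicate 1 (0.72) and highest in E14.5 replicate 2 (1.27), that equalizes the medians over the 8651 regions called in all 8 libraries. Lengths printed for single regions are unscaled.

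Adult epithelium carried longer H3K4me3 at 975 autosomal regions and shorter H3K4me3 at 1105, of 17039 regions called in at least 2 libraries. These are 5.72% and 6.49% of the tested regions. A region counts as changed when limma's adjusted p was below 0.05 and, in addition, the 4 adult and 4 embryonic scaled values did not overlap. Without limma, 1217 regions (7.14%) were higher in every adult library than in every embryonic one, and 1568 (9.2%) were lower. By limma alone 2361 regions (13.9%) were longer and 3034 (17.8%) were shorter in the adult. The median log2 change over all tested regions was -0.06. limma took its spread from the 2 libraries within each group. When the spread between the 2 populations of a side was counted as error instead, 396 longer and 589 shorter regions passed. All of these were among the 975 and 1105. The labels call the 2 libraries of a stage biological duplicates.

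**Figure D1:**
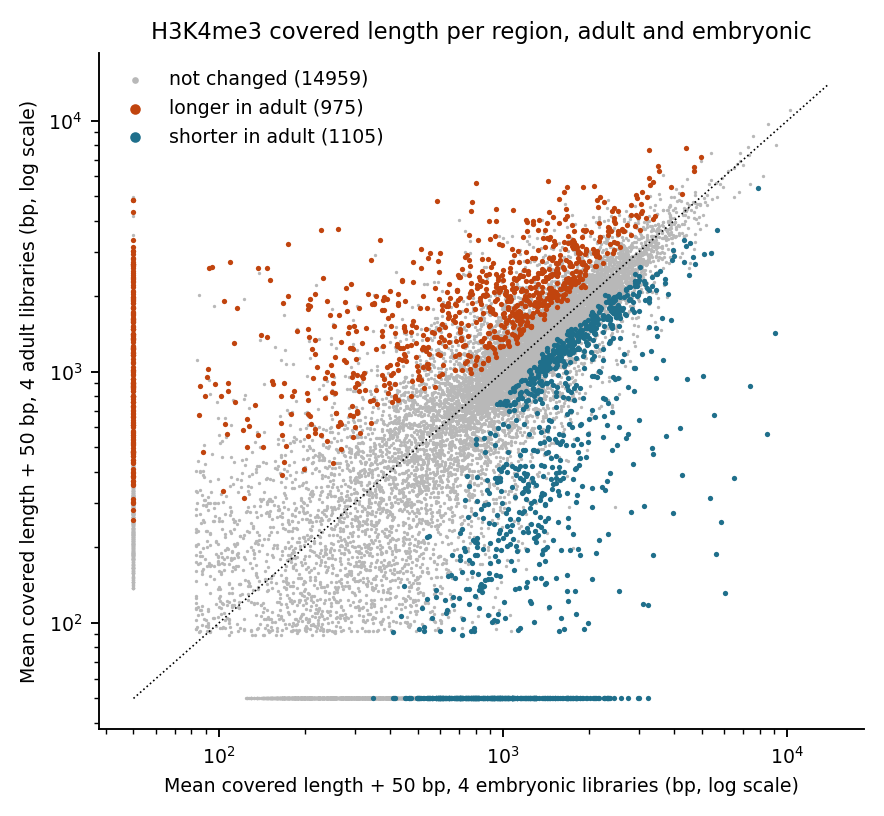
Mean covered length per tested region in the 4 embryonic libraries (x axis) and the 4 adult libraries (y axis), in bp, unscaled, with 50 bp added so that regions at 0 bp can be drawn on the log axes. Each point is 1 region, and the dotted line marks equal length. The 975 regions longer in adult and the 1105 shorter in adult lie on either side of the 14959 that did not pass both criteria, and the points along the lower and left borders were called on 1 side alone.

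The border of the no-overlap rule is narrow, as the regions called in all 8 libraries show. The region at chr5:136253412-136258338 was just inside it, with a lowest adult scaled length of 2075.2 bp against a highest embryonic one of 2074.3 bp. Just outside was chr7:53128085-53129880, with 1104.3 bp against 1108.4 bp. On the side shorter in adult, chr11:115999142-116000226 was just inside (highest adult 750.2 bp, lowest embryonic 750.4 bp) and chr4:55361951-55364672 just outside (1944.5 bp and 1943.7 bp).

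Changes came in 3 forms. Of the regions longer in adult, 468 (48.0%) were called in all 8 libraries, so that they differed in length and not in whether they were called. Their median covered length was 2129.0 bp in adult and 1292.5 bp in embryonic libraries. A further 333 (34.2%) were called in 1 to 3 embryonic libraries, and 174 (17.8%) in all 4 adult libraries and no embryonic one. Of the regions shorter in adult, 417 (37.7%) were called in all 8 libraries, with medians of 1218.0 bp in adult and 1778.5 bp in embryonic ones, 349 (31.6%) were called in 1 to 3 adult libraries, and 339 (30.7%) in every embryonic and no adult library. Regions on 1 side alone were short, with a median of 954.6 bp in the adult for those called there and of 866.5 bp in the embryo. A side at 0 bp in all its libraries shows no spread, which can make limma's p too small there, and no fold is given for such regions.

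The share of regions longer in adult was higher among long regions, and that of regions shorter in adult was not. Of regions that covered 3000 to 5000 bp on average over the 8 libraries, 47 of 362 were longer in adult and 19 (5.25%) shorter. At 5000 bp or more it was 16.7% and 5.56% (6 and 2 of 36). Of regions under 500 bp, 2.7% were longer and 5.09% shorter (154 and 291 of 5714), and of those from 500 to 1000 bp, 5.83% and 9.28%. These shares were not tested against each other. By mean length on the longer side, 137 of the 975 regions covered at least 3000 bp in the adult and 63 of the 1105 did so in the embryo.

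**Figure D2:**
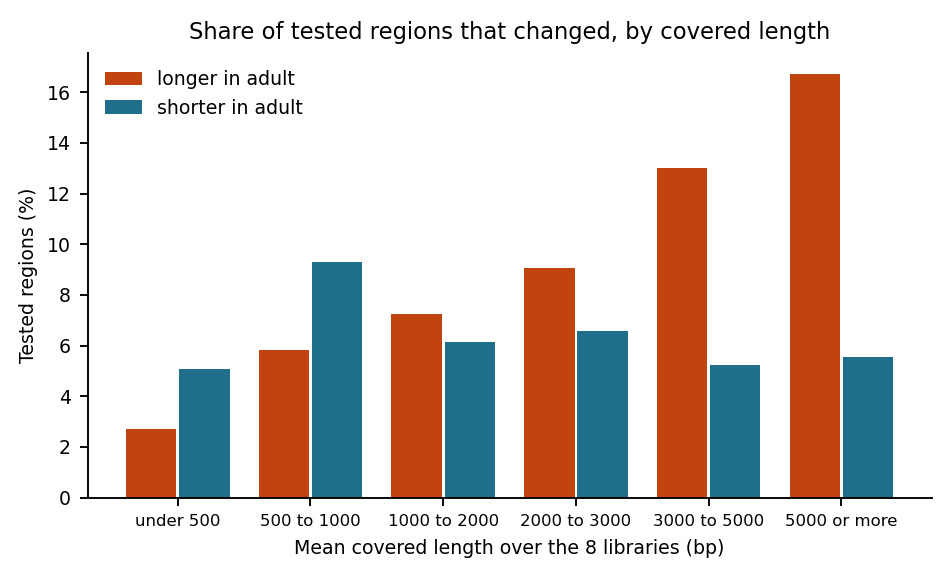
Share of tested regions (y axis, in %) that were longer or shorter in adult, in 6 classes of mean covered length over the 8 libraries (x axis, in bp). The share longer in adult goes from 2.7% of the shortest to 16.7% of the longest class, which holds 36 regions, while the share shorter in adult peaks at 9.28% between 500 and 1000 bp.

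The strongest gains in the adult were 10 regions absent from every embryonic list, named A1 to A10 in order of limma's fitted change. Region A1, at chr1:132722753-132728336, was covered over 5064 and 5584 bp in ISC and 4609 and 3906 bp in enterocytes (limma, adjusted p = 0.000174). All 4 adult libraries covered most of its 5584 bp span. Region A2, at chr17:85077991-85085096, had 2531 and 2875 bp in ISC and 6618 and 7048 bp in enterocytes (adjusted p = 6.74e-05). It was longer in enterocytes than in ISC, by a log2 change of 1.32 (limma, adjusted p = 0.0033). Region A3, at chr7:26259149-26262711, was even across the adult side, with 2952 and 3458 bp in ISC and 3354 and 3483 bp in enterocytes (adjusted p = 0.000174).

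Chromosome 11 held A4 and A6. A4, at chr11:66769945-66773960, was covered over 2473 and 3106 bp in ISC and 2747 and 3995 bp in enterocytes (limma, adjusted p = 0.000199). A6, at chr11:42969107-42972776, had 2239 and 2103 bp in ISC and 3531 and 3670 bp in enterocytes (adjusted p = 0.000207). In A6 both enterocyte libraries lay above both ISC libraries, a difference that missed the threshold (log2 change 0.72, adjusted p = 0.1).

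Chromosome 2 held A5 and A7. A5, at chr2:145685723-145689152, was called over 2684 and 2772 bp in ISC and 3138 and 3292 bp in enterocytes (limma, adjusted p = 0.000191). A7, at chr2:163362693-163367561, had 1909 and 2172 bp in ISC and 2943 and 4869 bp in enterocytes (adjusted p = 0.000231), and 1 of its 2 tested neighbours within 50 kb was also longer in adult.

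A8, A9 and A10 completed the 10. A8, at chr5:137443042-137446436, was covered over 2378 and 2719 bp in ISC and 2692 and 3321 bp in enterocytes (limma, adjusted p = 0.000191). A9, at chr6:55286090-55289686, had 2956 and 2941 bp in ISC but 1597 and 3597 bp in enterocytes, the widest spread within a group among these regions (adjusted p = 0.000348). A10, at chr3:88396148-88399230, had 2269 and 2162 bp in ISC and 3015 and 3083 bp in enterocytes (adjusted p = 0.000224). All 10 also passed when the spread between ISC and enterocytes counted as error. In lists cut to equal number, A2, A4, A7 and A10 no longer kept the sides apart in every library. With peaks of −log10 q of at least 10 alone, A1 and A8 kept their call and the other 8 lost it (A9, adjusted p = 0.608).

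The longest adult region absent from the embryo beside these was A19, at chr17:66938458-66947337, and it was mostly an enterocyte domain. It was covered over 993 and 217 bp in ISC and 8880 and 6958 bp in enterocytes (adult against embryonic, limma adjusted p = 0.00144). The step from ISC to enterocytes was itself past the threshold (log2 change 3.52, adjusted p = 0.0197). With the spread between the adult populations counted as error, A19 missed the threshold (adjusted p = 0.0582).

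A11 to A18, called in all 8 libraries, lengthened most in the adult among such regions. None of them passed both steps within a side, from E12.5 to E14.5 and from ISC to enterocytes. A11, at chr9:108755102-108763575, was covered over 439 and 579 bp in the E12.5 duplicates, 888 and 984 bp in the E14.5 duplicates, 1633 and 1903 bp in ISC and 5322 and 8474 bp in enterocytes (log2 change 2.03 ± 0.11 SE, limma adjusted p = 0.000348). Its enterocyte step alone was a log2 change of 1.85 (adjusted p = 0.00198). A12, at chr9:121550271-121554721, had 190 and 681 bp in the E12.5 duplicates, 1148 and 1531 bp in the E14.5 duplicates, 2488 and 3339 bp in ISC and 3363 and 4451 bp in enterocytes (log2 change 1.92 ± 0.26, adjusted p = 0.00317). Neither step within a side passed for A12, so that the sides differed while ISC and enterocytes were not told apart.

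In A13, at chr16:18626097-18630665, the change began before birth. It was covered over 250 and 486 bp in the E12.5 duplicates, 1695 and 2460 bp in the E14.5 duplicates, 3475 and 4351 bp in ISC and 3507 and 4481 bp in enterocytes (log2 change 1.91 ± 0.15, limma adjusted p = 0.000492). The embryonic step was a log2 change of 1.48 (adjusted p = 0.00721). A14, at chr11:96789986-96797195, went the same way with 678 and 438 bp in the E12.5 duplicates, 2921 and 2491 bp in the E14.5 duplicates, 3338 and 5792 bp in ISC and 5214 and 7185 bp in enterocytes (log2 change 1.87 ± 0.20, adjusted p = 0.00125). Its embryonic step was 1.36 (adjusted p = 0.0264).

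A15 was the exception in that ISC stood highest. This region, at chr11:98209414-98212520, was covered over 451 and 422 bp in the E12.5 duplicates, 989 and 966 bp in the E14.5 duplicates, 2965 and 3107 bp in ISC and 2246 and 2591 bp in enterocytes (log2 change 1.74 ± 0.08, limma adjusted p = 0.000269). ISC and enterocytes did not differ past the threshold there (log2 change -0.27, adjusted p = 0.267). A16, at chr9:66886798-66891827, had 514 and 643 bp, 1896 and 2099 bp, 3140 and 3886 bp, and 3866 and 4999 bp in the order E12.5, E14.5, ISC and enterocytes (log2 change 1.66 ± 0.06, adjusted p = 0.000224). Its embryonic step passed (log2 change 0.92, adjusted p = 0.00105).

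The last of these 8 were both on chromosome 5. A17, at chr5:31223080-31226485, was covered over 195 and 519 bp in the E12.5 duplicates, 1481 and 1301 bp in the E14.5 duplicates, 2250 and 2067 bp in ISC and 3259 and 3110 bp in enterocytes (log2 change 1.64 ± 0.20, limma adjusted p = 0.0022), and 2 of its 6 tested neighbours within 50 kb were longer in adult too. A18, at chr5:113644571-113650209, had 475 and 691 bp, 1348 and 2122 bp, 1852 and 2949 bp, and 5162 and 5623 bp in the same order of groups (log2 change 1.63 ± 0.16, adjusted p = 0.000903). From ISC to enterocytes A18 lengthened by a log2 change of 1.17 (adjusted p = 0.0377). Unscaled, A18 overlapped between the sides, since E14.5 replicate 2 (2122 bp) exceeded ISC replicate 1 (1852 bp).

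**Figure D3:**
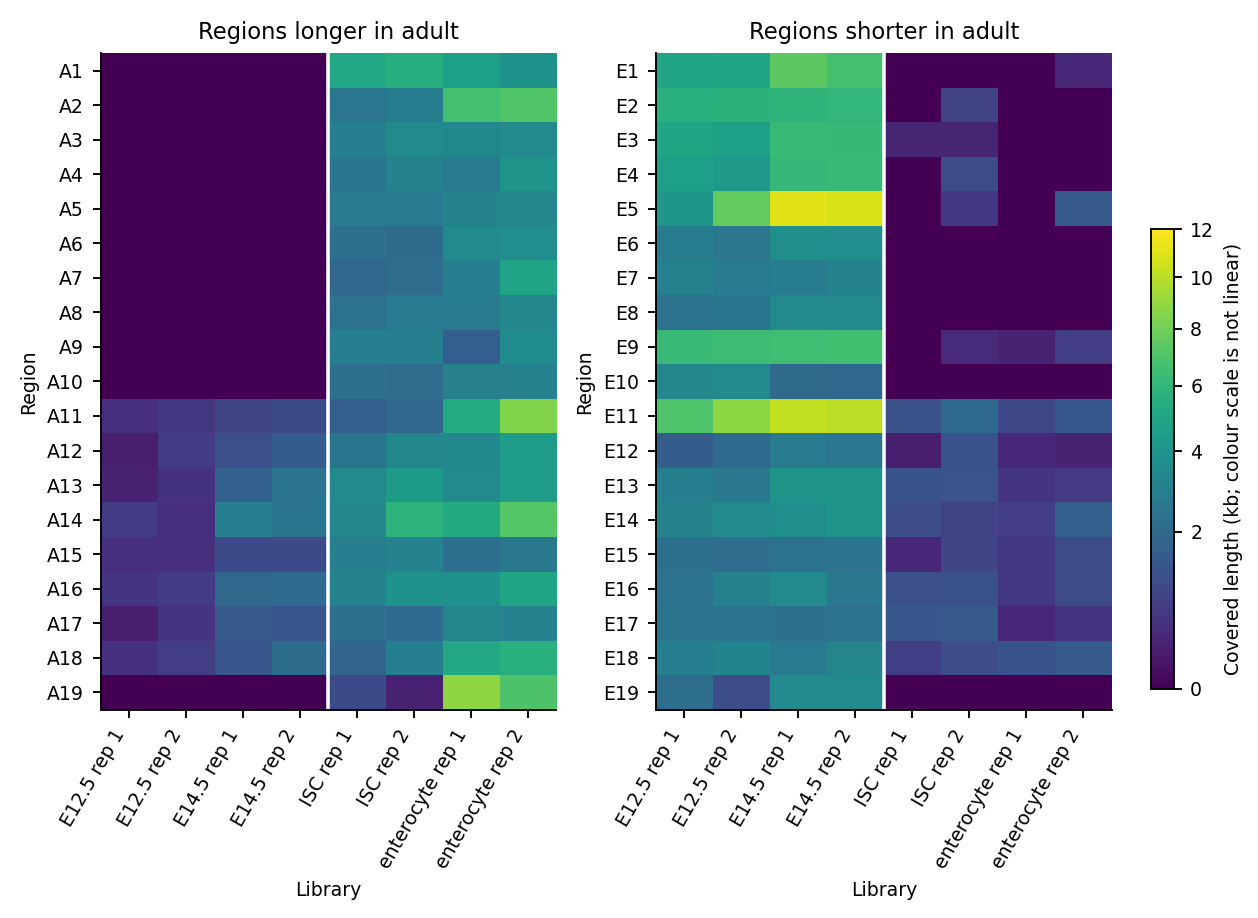
Covered length in kb (colour, on a scale that is not linear) of the 38 named regions (rows) in the 8 libraries (columns), 19 longer and 19 shorter in adult. The white line parts embryonic from adult libraries. Regions A1 to A10 and A19 are at 0 in all embryonic libraries, A11 to A18 and E11 to E18 have coverage in all 8, and E6, E7, E8, E10 and E19 are at 0 in all adult libraries.

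E1 to E10 were the largest losses in the adult, and several were long domains in the embryo. Region E1, at chr11:95862240-95869647, was covered over 4872 and 4997 bp in the E12.5 duplicates and 7408 and 6673 bp in the E14.5 duplicates, and in the adult only enterocyte replicate 2 listed it, over 328 bp (limma, adjusted p = 0.000348). E2, at chr12:28022837-28028886, had 5629 and 5717 bp in the E12.5 duplicates, 5842 and 6050 bp in the E14.5 duplicates, 813 bp in ISC replicate 2 and 0 bp in the other adult libraries (adjusted p = 0.00139). E3, at chr5:58105386-58111683, had 5028 and 4713 bp in the E12.5 duplicates and 6298 and 6176 bp in the E14.5 duplicates, then 281 and 272 bp in ISC and 0 bp in both enterocyte libraries (adjusted p = 8.16e-05). Its step from ISC to enterocytes passed as well (log2 change -1.23, adjusted p = 0.0046), although with 0 bp in enterocytes this size depends on the pseudocount. In lists of equal number E3 missed the threshold (adjusted p = 0.06).

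Further long domains were nearly gone from the adult. E4, at chr9:114467907-114474109, was covered over 4604 and 4323 bp in the E12.5 duplicates and 6087 and 6190 bp in the E14.5 duplicates, against 1059 bp in ISC replicate 2 and 0 bp in the other adult libraries (limma, adjusted p = 0.00289). E9, at chr11:18914382-18921110, was even in the embryo, with 6239 and 6444 bp in the E12.5 duplicates and 6521 and 6579 bp in the E14.5 duplicates, and had 0 and 357 bp in ISC and 263 and 697 bp in enterocytes (adjusted p = 0.000672). E5, at chr7:149840171-149851336, had the longest merged span of the named regions, with 4150 and 7576 bp in the E12.5 duplicates and 11105 and 10809 bp in the E14.5 duplicates, against 0 and 586 bp in ISC and 0 and 1478 bp in enterocytes (adjusted p = 0.011). E5 no longer passed when either E14.5 library was left out (adjusted p = 0.0539 without replicate 1, 0.0516 without replicate 2).

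E6, E7, E8, E10 and E19 were called in every embryonic library and in no adult one. E6, at chr5:143721701-143725413, was covered over 2831 and 2574 bp in the E12.5 duplicates and 3713 and 3651 bp in the E14.5 duplicates (limma, adjusted p = 0.000195). E7, at chr14:117324140-117327559, had 3043 and 2771 bp in the E12.5 duplicates and 2807 and 3145 bp in the E14.5 duplicates (adjusted p = 0.000207). E8, at chr16:74409933-74413453, had 2333 and 2504 bp and then 3521 and 3436 bp (adjusted p = 0.000191). In these 3 the embryonic stages were not told apart after scaling.

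E10, at chr9:110643111-110646677, was longer at the earlier stage. It had 3328 and 3534 bp in the E12.5 duplicates and 2027 and 1936 bp in the E14.5 duplicates (adult against embryonic, limma adjusted p = 0.000195), and the fall within the embryo passed (log2 change -1.38, adjusted p = 0.00342). E19, at chr6:92890490-92894084, was uneven at E12.5, with 2198 and 1084 bp, and had 3477 and 3462 bp in the E14.5 duplicates (adjusted p = 4e-04). In lists of equal number E19 no longer kept the sides apart.

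Among regions called in all 8 libraries, E11 at chr5:28784448-28795085 shortened most. It was covered over 7040 and 8783 bp in the E12.5 duplicates, 10204 and 10078 bp in the E14.5 duplicates, 1160 and 2019 bp in ISC and 934 and 1404 bp in enterocytes (log2 change -2.61 ± 0.14 SE, limma adjusted p = 0.000331). E12, at chr13:22009003-22011781, had 1571 and 2012 bp in the E12.5 duplicates, 2692 and 2522 bp in the E14.5 duplicates, 197 and 1215 bp in ISC and 333 and 250 bp in enterocytes (log2 change -1.99 ± 0.37, adjusted p = 0.0113). E12, too, missed the threshold when either E14.5 library was left out (adjusted p = 0.0589 without replicate 1, 0.0533 without replicate 2). E13, at chr8:35038226-35042275, went from 2957 and 2597 bp in the E12.5 duplicates and 4013 and 4001 bp in the E14.5 duplicates to 1197 and 1249 bp in ISC and 520 and 605 bp in enterocytes (log2 change -1.79 ± 0.10, adjusted p = 0.000348). Its step from ISC to enterocytes passed (log2 change -0.87, adjusted p = 0.0201).

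Both named regions of chromosome 10 shortened by similar amounts. E14, at chr10:44245998-44250009, was covered over 3143 and 3481 bp in the E12.5 duplicates, 3748 and 4012 bp in the E14.5 duplicates, 1079 and 790 bp in ISC and 700 and 1691 bp in enterocytes (log2 change -1.67 ± 0.23, limma adjusted p = 0.0035). E16, at chr10:117065791-117069322, had 2330 and 3038 bp, 3516 and 2595 bp, 1143 and 1166 bp, and 578 and 1062 bp in the order E12.5, E14.5, ISC and enterocytes (log2 change -1.42 ± 0.16, adjusted p = 0.00158). In neither region did a step within a side pass.

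The unscaled embryonic values of E15, E17 and E18 were close to one another while the adult ones were spread. E15, at chr11:68504565-68507337, had 2262 and 2162 bp in the E12.5 duplicates, 2336 and 2397 bp in the E14.5 duplicates, 306 and 876 bp in ISC and 570 and 1055 bp in enterocytes (log2 change -1.58 ± 0.24, limma adjusted p = 0.00502). E18, at chr3:80840040-80843347, had 2962 and 3181 bp, 2759 and 3211 bp, 736 and 1085 bp, and 1211 and 1482 bp in the same order (log2 change -1.34 ± 0.08, adjusted p = 0.000348). E17, on chromosome 18, was covered over 2458 and 2441 bp, 2265 and 2353 bp, 1356 and 1427 bp, and 312 and 530 bp (log2 change -1.42 ± 0.11, adjusted p = 0.000425). After scaling, E17 (log2 change -0.72, adjusted p = 0.0281) and E18 (-0.70, adjusted p = 0.0126) were also shorter at E14.5 than at E12.5, whereas the unscaled lengths of E18 overlapped between these stages. The further shortening of E17 from ISC to enterocytes passed (log2 change -1.35, adjusted p = 0.00574), and with the spread between the adult populations counted as error its adult call was lost (adjusted p = 0.07).

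The groups within a side also differed in level at the changed regions, while the order between the sides is fixed by the no-overlap rule. At the 975 regions longer in adult, the median scaled covered length was 197.8 bp at E12.5, then 903.9 bp at E14.5, 1443.9 bp in ISC and 1950.5 bp in enterocytes. ISC lay below enterocytes at 759 of them (77.8%), against 40.5% of all tested regions. E12.5 lay below E14.5 at 712 (73.0%), against 60.9% of all tested regions, E14.5 lay below E12.5 at 89, and at 174 both stages were at 0 bp. At the 1105 regions shorter in adult the medians were 1368.4 bp at E12.5, then 1234.8 bp at E14.5, 463.3 bp in ISC and 79.4 bp in enterocytes. Enterocytes lay below ISC at 652 of them (59.0%), against 47.3% of all tested regions. E14.5 lay below E12.5 at 715 (64.7%), against 32.2%. The rule requires a call in every library of the longer side, whereas 28.6% of all tested regions were called in neither E12.5 library. The orders within a side are therefore not free of the rule, and their difference from all tested regions was not tested. The full order from E12.5 over E14.5 and ISC to enterocytes held upwards at 557 (57.1%) of the regions longer in adult. Downwards it held at 458 (41.4%) of the regions shorter in adult. Since the rule fixes the order between the sides, these counts only join the within-side orders given above. They do not by themselves show a progression across the groups. No such share was taken over all tested regions. Whether the embryonic and adult orders went together beyond their separate shares was not tested.

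**Figure D4:**
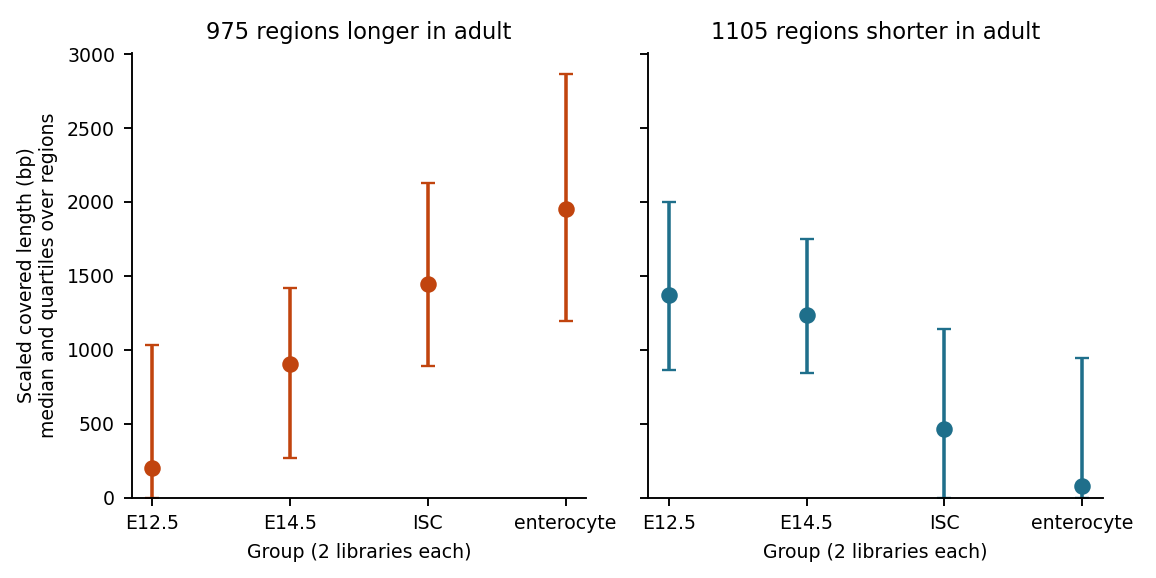
Scaled covered length in bp (y axis) in the 4 groups (x axis, 2 libraries each) over the 975 regions longer in adult and the 1105 shorter in adult. Points are medians over regions and bars run from the lower to the upper quartile. The medians climb from 197.8 bp at E12.5 to 1950.5 bp in enterocytes on the left and go down from 1368.4 bp to 79.4 bp on the right. Scaling divides E12.5 lengths by lower factors than E14.5 lengths, and the order of these groups depends on it.

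The steps within a side, not themselves part of the rule, were tested in the same fit. Of the 975 regions longer in adult, 309 (31.7%) were longer at E14.5 than at E12.5 and 1 was shorter. Over all tested regions 15.4% were longer at E14.5 and 1.74% shorter. From ISC to enterocytes 117 of the 975 were longer and 7 shorter, against 4.4% and 3.15% of all tested regions. At the 1105 regions shorter in adult, 103 (9.32%) were shorter in enterocytes than in ISC and 1 was longer. From E12.5 to E14.5 only 35 of them were shorter (3.17%) and 19 longer (1.72%). For a region to keep the sides apart, no group of a side may cross the other side, so these counts are not free of the rule and were not tested further. The lower coverage of the E12.5 lists moved with the embryonic step, and its part was not tested.

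Absence from the lists was read against all tested regions, of which 28.6% were called in neither E12.5 library and 7.12% in neither E14.5 library. Of the regions longer in adult, 449 (46.1%) were called in neither E12.5 library and 174 (17.8%) in neither E14.5 library. The no-overlap rule favours such absence, since 0 bp on the shorter side lies below any length on the other. Of the regions shorter in adult, 544 (49.2%) were called in neither enterocyte library and 354 (32.0%) in neither ISC library, where all tested regions gave 19.8% and 16.3%. These shares are not free of the rule and were not tested.

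Where a region called in all 8 libraries changed length, both mean edges usually lay further out on the longer side. Edges were unscaled, a shift of any size counted, and no such share was taken for regions that did not change. The larger and the smaller shift were sorted within each region, so that they differ is built in. The count of single edges can include regions whose other edge moved the opposite way. At 389 of the 468 regions longer in adult (83.1%) both mean peak edges lay further out in the adult. The edge that moved more did so by a median of 614.6 bp and the other by 105.1 bp, and at 284 regions (60.7%) a single edge made up over 80% of the extension. Of the 417 regions shorter in adult, 330 (79.1%) were drawn in at both edges, with medians of 411.5 and 81.5 bp. At the regions longer in adult the libraries had 1.02 peaks per region in adult and 1.04 in the embryo, with more peaks on the embryonic side at 33 of the 468 and on the adult side at 23.

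**Figure D5:**
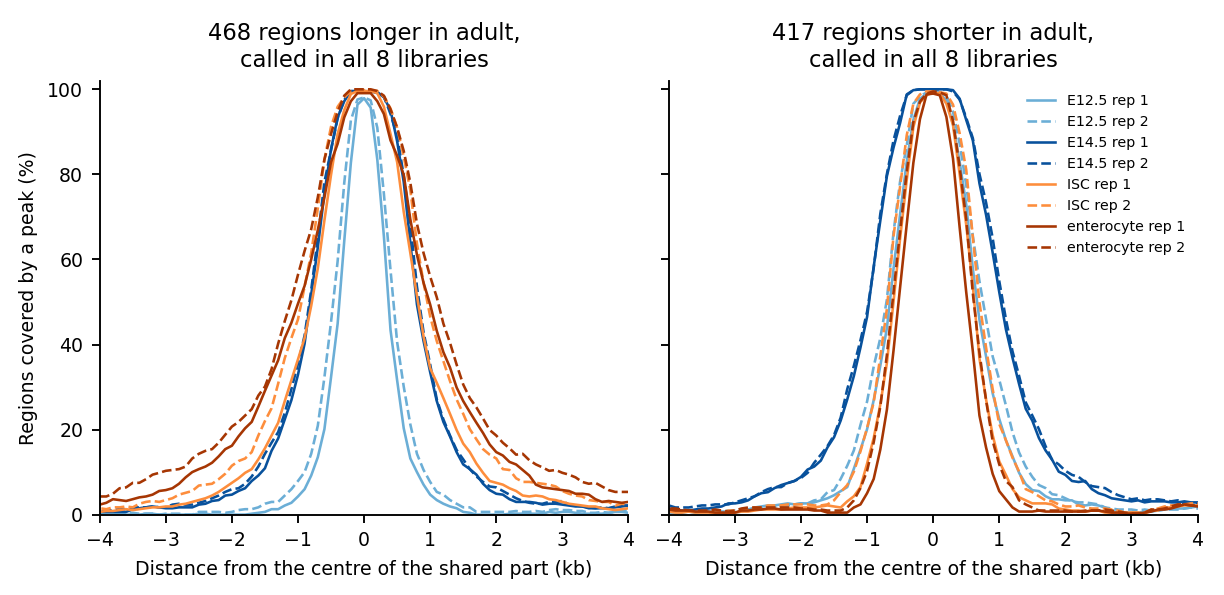
Share of regions covered by a peak (y axis, in %) by distance from the centre of the part that all libraries share (x axis, in kb), for the regions called in all 8 libraries that were longer (468, left) or shorter (417, right) in adult. Each line is 1 unscaled library. At the centre itself the E12.5 libraries covered 97.9% and 98.1% of the regions longer in adult. In a few regions the centre thus lies outside the peaks of some library. At 1 kb to the left of the centre, 49.6% and 56.4% of the regions longer in adult were covered in enterocytes and 4.27% and 7.91% at E12.5. E14.5 (32.9% and 35.5%) lay close below ISC (36.5% and 45.9%) there. At 1 kb to the right, E14.5 (33.5% and 35.3%) and ISC (34.4% and 46.6%) overlapped.

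Peak strength was described beside length. The strength of a region was taken as the percentile of its best −log10 q within its own list, from the authors' values. The regions called in all 8 libraries that were longer in adult had a median percentile of 40.1 and 53.2 in the E12.5 lists and 61.5 and 65.5 in those of E14.5. All regions called in all 8 had 59.0 and 66.8 at E12.5 and 72.7 and 74.8 at E14.5, so the regions longer in adult were weaker than these in each embryonic list. In the adult lists they had 59.8 and 63.3 in ISC (all: 66.5 and 71.9) and 65.8 and 68.7 in enterocytes (all: 59.5 and 73.7), so that they were weaker in 3 of the 4. The regions shorter in adult were above the median of all in every embryonic list, with 71.0 and 73.4 at E12.5 and 78.7 and 78.9 at E14.5, and also in ISC (70.5 and 75.8). In enterocytes they were below it (51.2 and 72.1). A q and a covered length come from the same tags, so these percentiles are a description.

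Of the 975 regions longer in adult, 165 (16.9%) had another such region within 50 kb, compared with 10.4% of the 14959 regions that did not change. For the regions shorter in adult it was 111 (10.0%) against 8.6%. The density of regions along the chromosome was not matched in these shares, and no test was made.

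Both of the longest runs of neighbouring losses were on chromosome 13. With gaps of at most 50 kb, 6 of 11 tested regions at chr13:21307400-21419727 were shorter in adult, 4 of 8 at chr13:21947109-22017597, which holds E12, and 3 of 5 at chr13:23589635-23618804. The other runs of 3 losses lay at chr7:6282442-6316708 and chr1:172974051-173016361. In the whole 2.31 Mb from the first to the last, chosen after these values were seen, 17 of 81 tested regions (21.0%) were shorter in adult and 0 longer. Those 17 regions together covered 14693 and 15437 bp in the E12.5 duplicates, 23042 and 22913 bp in the E14.5 duplicates, 5071 and 8182 bp in ISC and 2797 and 3767 bp in enterocytes. Unscaled, the sums over all 81 overlapped between the sides, since ISC (51074 and 69609 bp) lay around the values of E12.5 (52838 and 57215 bp). Scaling divides E12.5 lengths by lower factors (0.72 and 0.84) than ISC lengths (0.94 and 1.11). The overlap is therefore one of unscaled sums alone and is no outcome of the no-overlap rule, which uses scaled values.

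Runs of gains held at most 4 changed regions, and runs of 2 or more were more numerous, with 77 against 51 for losses. All 3 tested regions at chr17:34611140-34656252 were longer in adult, and together they covered 0 bp in both E12.5 libraries, 320 and 1720 bp in the E14.5 duplicates, 4423 and 5744 bp in ISC and 11248 and 9759 bp in enterocytes. At chr15:85475981-85506199, 3 of 4 regions were longer, with 0 and 244 bp in the E12.5 duplicates, 1313 and 1881 bp in the E14.5 duplicates, 5294 and 8085 bp in ISC and 5341 and 6471 bp in enterocytes. The former run was longest in enterocytes, whereas in the latter ISC and enterocytes overlapped. Runs of 4 lay at chr17:36264533-36327147 and chr10:127079248-127177735, with 7 tested regions in each span.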

How the data were processed

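The series measured H3K4me3 by ChIP-seq in 8 libraries, 2 for each of 4 groups, taken from the sample titles. Per the file headers, peaks were called per library with MACS 2.0.10.20130712 as broad regions (stated q-value cutoff 0.01), both libraries of a group against 1 input, and replicates were not pooled. The build is mm9, and the tools are bcl2fastq 1.8.4, SAMtools 1.2 and Bowtie 1.1.2, per the submitters' processing notes. Per the file headers each deposited peak has a position, a pileup signal, −log10 p and −log10 q values, and a fold enrichment ratio over the input. Positions and −log10 q were used, and fold enrichment only to order peaks of equal −log10 q when lists were cut to equal number. The listed broad peaks reach down to a −log10 q of 1.01, so they were not cut at the stated 0.01. The headers name no other cutoff for broad regions. No counts of reads are listed. A region not called is not shown to lack the mark, and depth (12821255 to 43259380 tags per library) limits what is called.

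Covered bp was scaled, 200 bp was added, and log2 values of all 4 groups were fitted with limma 3.58.1 in R 4.3.3 with a trended prior (4 residual and 1.53 prior degrees of freedom). The contrast was the mean of ISC and enterocytes minus the mean of E12.5 and E14.5, two-sided, with Benjamini-Hochberg adjustment over 17039 regions at 0.05. Printed log2 changes include the 200 bp, and so understate the change of short regions. Library values were compared by exact permutation in SciPy 1.17.1. The named regions are the 10 per direction with the largest change, the 8 with the largest change among regions called in all 8 libraries, and the 5 longest called on 1 side alone. The rule also named the regions over 5 marker genes, which could not be placed on mm9 here. Gene lists of the plan were not used for the same reason. Regions, lists and tests were chosen with earlier results of these data known. The fit with the no-overlap rule was tried on simulated lengths for 17037 regions with adult-embryonic changes added. It recovered 47.0% of 100 changes of 1 and 74.7% of 99 changes of 2 on the log2 scale. It also called 7 unchanged regions. In the data 15.4% of tested regions were longer at E14.5 than at E12.5. The number called in error with such differences within a side was not tested. Alternatives were other scalings, pseudocounts, minimum numbers of libraries, peak thresholds, list lengths, merging distances and fits, the sex chromosomes, and each library left out in turn.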

Additional observations from a re-analysis of the deposited data

Results flagged for a closer look

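In 4 of the 38 named regions, 1 adult library stood far from the other 3 by Dixon's test over the 4 libraries of a side. In region E1, enterocyte replicate 2 was covered over 328 bp and the other adult libraries over 0 bp. In E2, ISC replicate 2 had 813 bp against 0 bp. In E4, ISC replicate 2 had 1059 bp against 0 bp. In E12, ISC replicate 2 had 1215 bp, while the other 3 had 197 to 333 bp. With 3 values at 0 bp, as in E1, E2 and E4, the ratio flags any remaining value above 0, so these 3 show only that 1 adult list holds the region. Chance alone flags about 1 in 20 sets without such ties, 86 sets were examined, and each joins 2 populations. The values of ISC replicate 2 stood beside its depth, 25547814 tags, the highest of the adult libraries, and the part of depth was not tested. E1, E2, E4 and E12 each passed limma's threshold without ISC replicate 2 as well as without enterocyte replicate 2.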

How the results depend on the processing

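The counts of changed regions were recomputed under 20 alternatives and those without a test under 16, since 4 of the 20 do not enter them, and no region changed direction between the calls in any of the 19 in which regions could be matched one to one. The counts of 975 longer and 1105 shorter regions became 478 and 680 without scaling, 246 and 24 with peaks of −log10 q of at least 10, and 396 and 589 in the 2-group fit. Of the 246 and 24, only 111 and 19 were among the 975 and 1105. Of the 478 and 680 without scaling, 470 and 642 were. The share of longer regions among all those changed at −log10 q of at least 10 was 91.1%, against 46.9% in the main fit. Regions kept apart without a test (1217 higher, 1568 lower) became 511 and 818 without scaling and 621 and 113 at −log10 q of at least 10, where E12.5 replicate 1 keeps 1439 peaks. With 1 library left out, the longer regions ranged from 712 to 1269 and the shorter from 619 to 1587, with 619 and 628 without E14.5 replicates 1 and 2. The regions higher in adult without a test ranged from 1322 to 1914 (without ISC replicate 1) and the lower from 1575 to 2623 (without E12.5 replicate 1). A group left with 1 library was assumed to vary like the others, a region overlaps less easily among 7 values, and the cause of these shifts was not tested beyond that. Of the 38 named regions, 5 kept their call at −log10 q of at least 10 and 31 in lists of 11111 peaks, and at most 2 were lost in any other alternative. The 5 were A1, A8, A12, A14 and A16, all longer in adult. All 19 named regions shorter in adult lost their call at −log10 q of at least 10. The log2 change of A13 there was 0.33. With the replicate number as a block, 965 regions were longer and 1096 shorter and all 38 named regions kept their call. Same-numbered libraries correlated in their deviations by 0.0227 to 0.301, so the numbers were not taken to pair them.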

Other observations

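Every autosome held changes in both directions. The share of tested regions that changed was lowest on chromosomes 4 and 19, at 10.5%, and highest on chromosome 1. Chromosome 19 had the highest share longer in adult, 7.48% (44 of 588), together with the lowest share shorter, 3.06% (18). Chromosome 1 had the highest share shorter in adult, 8.27% (82 of 991). Chromosome 13 had the lowest share longer in adult, 4.44% (34 of 766), with 7.18% shorter. These shares were not tested.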
